A study of Homo sapiens with 8 samples.

Results

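TSPOAP1, PLCB2 and GIGYF1 are 3 of the 63140 genes in the deposited count table, and 3 of the 24057 genes with enough counts to be tested. They were selected on measured values of these libraries, because their counts were lower after cytosine base editing of the long non-coding RNA gene HOTSCRAMBL than after base editing of AAVS1, or lower on average over both editors. That average contains the comparison after Cas9 knockout as well, and which of the 2 grounds chose each gene is not stated. For that reason the effects of HOTSCRAMBL editing on the 3 genes, with either editor, are given as a description, without a test. By p-value among genes that were lower with base editing, TSPOAP1 ranked 1, PLCB2 ranked 4 and GIGYF1 ranked 18. On the average over editors the same genes ranked 9, 14 and 2. Both sets of ranks come from the comparisons that chose the genes, so they restate the choice and lend it no support.

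By the sample labels, the RNA came from MOLM13 and OCI-AML4, established human acute myeloid leukaemia (AML) lines. It was taken on day 3 after nucleofection of guide RNAs with an editor. The identity of the lines was not checked, so MOLM13 and OCI-AML4 name labels throughout. Like values under both labels are therefore not shown to be replication across 2 lines. Over all tested genes, deviations of libraries with the same label correlated at only 0.00851 to 0.0245. Between the labels, 119 of all tested genes, or 0.495%, passed an edgeR adjusted p of 0.05. The editor was either Cas9 ribonucleoprotein, which cuts DNA and is called KO here, or a cytosine base editor, which changes bases without a double-strand cut and is called CBE. Each target was edited with each editor, which gives 4 groups named here by target and editor (such as AAVS1 KO), and each held 2 libraries, 1 labelled MOLM13 and 1 labelled OCI-AML4. AAVS1, a locus used as a safe target, was the control for each editor, so all 8 libraries came from edited cells and there was no unedited group. Whether each line was an edited pool or a clone is not stated in the sources used here. Each library was a chromatin isolation by RNA purification (ChIRP) pull-down, in which biotinylated probes capture RNA from fixed, sonicated lysate. The labels do not give the probes' target, so every level is an amount of RNA in a pull-down and not cellular expression. Nothing in the labels says that the libraries of a group came from repeated cultures of 1 line, and p-values measure only the spread between these samples.

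Total counts lay between 20548300 and 37970163 per library, and between 21945 and 26083 genes had at least 1 count. All 8 AML markers checked had counts, at a summed level of 1061 to 1102 CPM (counts scaled to library size) in the AAVS1 libraries with KO and 1058 to 1072 with CBE, and of 1273 to 1404 in the HOTSCRAMBL libraries with KO and 973 to 1011 with CBE. Of the 7 markers of other cells, CD3E, HBB and ALB were at 0 counts in all 8 libraries, and the summed level of the list was 5.90 to 11.1 CPM. The table has 0 genes named HOTSCRAMBL, so the edited gene itself could not be checked by name.

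The proteins encoded by the 3 genes work in different processes. TSPOAP1 (TSPO associated protein 1, also called RIM-BP1) is a large scaffold that binds the mitochondrial membrane protein TSPO and, in neurons, ties presynaptic calcium channels to the vesicle release machinery. PLCB2 encodes phospholipase C beta 2, an enzyme of blood cells that is switched on by G proteins below chemoattractant receptors and splits a membrane lipid into inositol trisphosphate, which releases calcium, and diacylglycerol, which activates protein kinase C. GIGYF1 is an adaptor with a GYF domain that, like its paralog GIGYF2, joins the cap-binding protein EIF4E2 to repress translation of messenger RNAs.

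All 3 genes are protein-coding and lie on the minus strand of GRCh38. TSPOAP1 (ENSG00000005379) spans chromosome 17, 58301228 to 58328795, with 11389 exonic bases. PLCB2 (ENSG00000137841) spans chromosome 15, 40278176 to 40307935, with 7349 exonic bases. GIGYF1 (ENSG00000146830) spans chromosome 7, 100679507 to 100694250, with 7058 exonic bases. TSPOAP1 was among the most abundant RNAs of the pull-downs, ranking 12 of the tested genes by mean CPM (3368) and 82 per kilobase of exon (295.7 CPM per kb). PLCB2 ranked 377 per kilobase with 68.5 CPM per kb, and GIGYF1 ranked 410 with 64.3 CPM per kb. In AAVS1 KO the level per kilobase was 340 ± 22.3 for TSPOAP1, 88.6 ± 18.6 for PLCB2 and 87.7 ± 16.5 for GIGYF1 (SD, n = 2), so TSPOAP1 stood above the other two, which differed from each other by less than the spread between libraries. In HOTSCRAMBL CBE the levels per kilobase were 123 ± 2.60, 31.8 ± 0.493 and 42.2 ± 2.80 in the same order of genes.

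The scaffold gene TSPOAP1 separated the editors. Its TMM-scaled level was 4047, 4599, 3862 and 1374 CPM in the MOLM13 libraries of AAVS1 KO, HOTSCRAMBL KO, AAVS1 CBE, HOTSCRAMBL CBE, and 3688, 4369, 3587 and 1416 CPM in the OCI-AML4 libraries in the same order. Both HOTSCRAMBL CBE libraries lay far below the other 6, while both HOTSCRAMBL KO libraries were the highest of the 8. With CBE the group means were 3725 ± 195 CPM in the control and 1395 ± 29.7 after HOTSCRAMBL editing, a log2 fold change of −1.42 (SE 0.0714), or 2.67-fold lower. The log2 ratio was −1.49 in MOLM13 and −1.34 in OCI-AML4. With KO the means were 3868 ± 254 and 4484 ± 163 CPM, and the log2 ratio was 0.18 in MOLM13 and 0.24 in OCI-AML4. The fitted KO log2 fold change was 0.21 (SE 0.0697), and 0.06 with library totals in place of scaling factors.

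TSPOAP1 is abundant enough to see in the unscaled share of all counts. With KO it held 0.420% and 0.392% of counts in the controls against 0.439% and 0.406% after HOTSCRAMBL editing, and with CBE 0.404% and 0.380% against 0.131% and 0.136%. On this unscaled measure both HOTSCRAMBL CBE libraries were again the lowest of the 8, and with KO the HOTSCRAMBL library was the higher one within each line, although the groups overlapped across lines.

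PLCB2, the phospholipase, was lower after HOTSCRAMBL editing with both editors. Its level was 748, 586, 686 and 236 CPM in the MOLM13 libraries of AAVS1 KO, HOTSCRAMBL KO, AAVS1 CBE, HOTSCRAMBL CBE, and 555, 432, 552 and 231 CPM in the OCI-AML4 libraries in the same order. The HOTSCRAMBL CBE libraries were again the lowest of the 8. The KO groups overlapped across lines, and within each line's KO pair the HOTSCRAMBL library was the lower one. With CBE the means were 619 ± 95.1 and 234 ± 3.63 CPM, a log2 fold change of −1.40 (SE 0.108), with ratios of −1.54 in MOLM13 and −1.26 in OCI-AML4. With KO the means were 651 ± 136 and 509 ± 109 CPM, and the log2 ratios were −0.35 and −0.36. The fitted KO log2 fold change was −0.36 (SE 0.104), and it was −0.45 to −0.27 over the 8 fits that leave out 1 library. Over all tested genes the KO comparison called 8.76%, of which 4.25% were lower and 4.51% higher.

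GIGYF1, the translational adaptor, was at a similar low level after HOTSCRAMBL editing with either editor. Its level was 702, 312, 667 and 312 CPM in the MOLM13 libraries of AAVS1 KO, HOTSCRAMBL KO, AAVS1 CBE, HOTSCRAMBL CBE, and 537, 275, 540 and 284 CPM in the OCI-AML4 libraries in the same order. All 4 HOTSCRAMBL libraries lay below all 4 AAVS1 libraries. The log2 fold change was −1.07 (SE 0.104) with KO and −1.02 (SE 0.101) with CBE, from 619 ± 117 to 293 ± 25.9 CPM and from 604 ± 90.0 to 298 ± 19.7 CPM. The ratio was −1.17 in MOLM13 and −0.96 in OCI-AML4 with KO, and −1.10 and −0.93 with CBE. As for the other genes, neither value was tested.

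**Figure D1:**
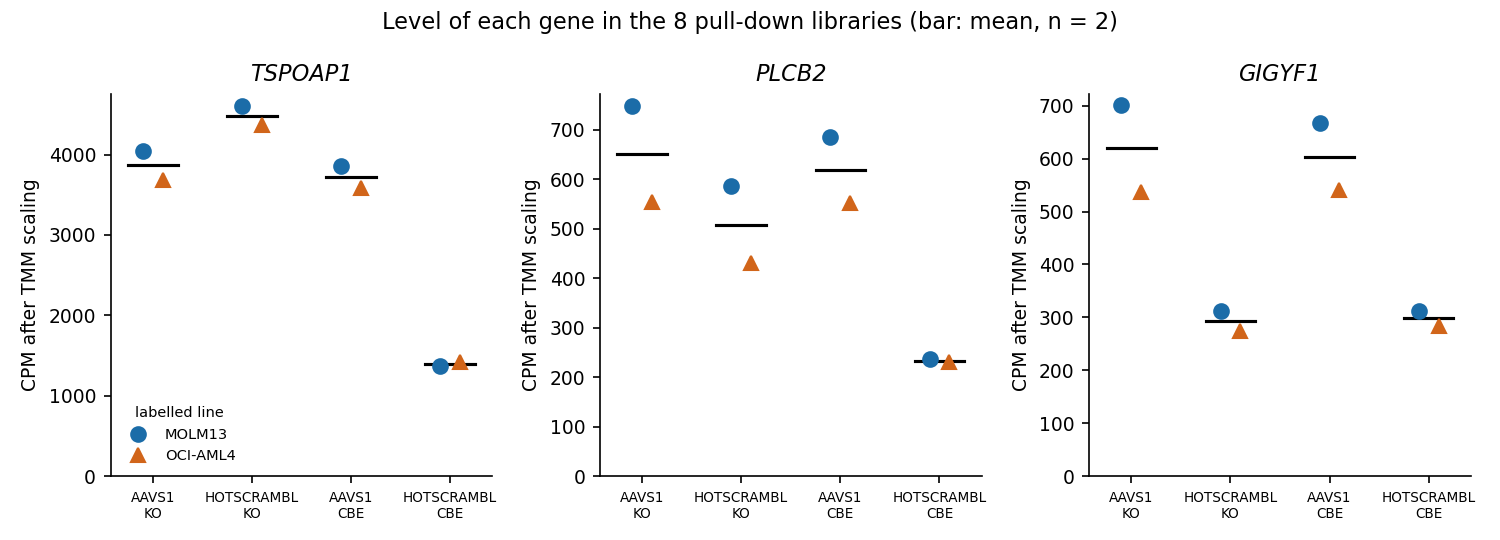
Level in CPM after TMM scaling (vertical axis, linear from 0) of TSPOAP1, PLCB2 and GIGYF1 in each of the 8 libraries, by group (horizontal axis), with circles for MOLM13, triangles for OCI-AML4 and a bar at the mean of n = 2. HOTSCRAMBL CBE is lowest for TSPOAP1 (1374 and 1416 CPM) and PLCB2 (236 and 231 CPM), and GIGYF1 is at 275 to 312 CPM in all 4 HOTSCRAMBL libraries.

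Set side by side, the 3 genes differ in how the KO and CBE effects compare. The KO effect minus the CBE effect was 1.63 (SE 0.0995) on the log2 scale for TSPOAP1, 1.04 (SE 0.149) for PLCB2 and −0.05 (SE 0.144) for GIGYF1. These differences contain the libraries that chose the genes and carry no test. Between the control groups, AAVS1 KO minus AAVS1 CBE was 0.05 for TSPOAP1, 0.07 for PLCB2 and 0.03 for GIGYF1, so the control levels lay close together. Between the HOTSCRAMBL groups, KO minus CBE was 1.68, 1.11 and −0.02. Over all tested genes, the CBE comparison called 8.83%, with 4.27% lower and 4.56% higher, and 6.51% were lower on the average over editors.

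**Figure D2:**
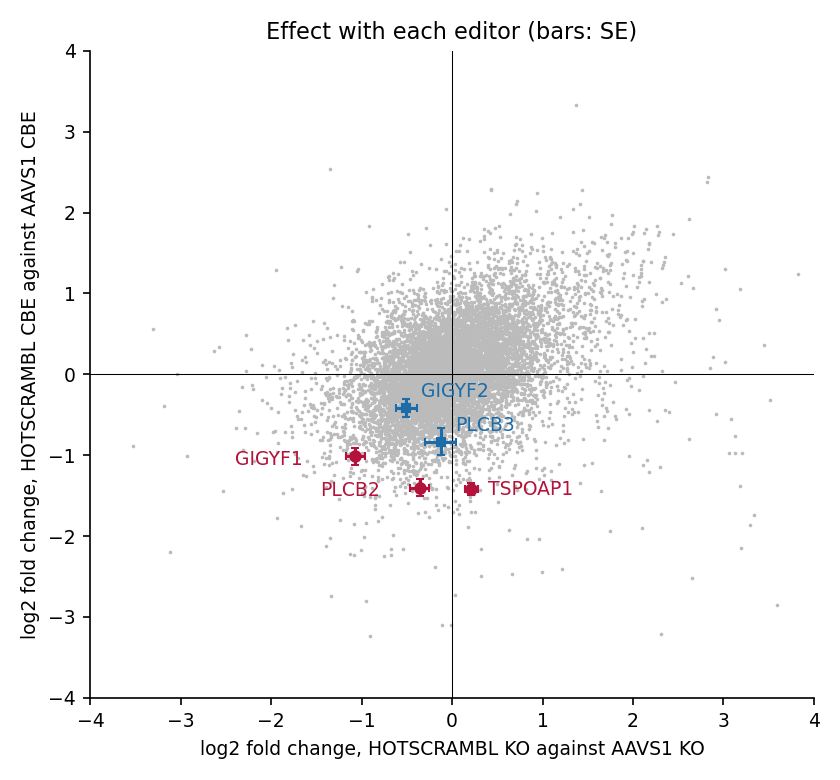
Log2 fold change of HOTSCRAMBL against AAVS1 with KO (horizontal axis) and CBE (vertical axis) for genes with a mean of at least 10 CPM, in grey within ±4, with the 3 genes as red circles, the paralogs PLCB3 and GIGYF2 as blue squares, and bars for SE. TSPOAP1 lies right of 0 with KO (0.21) and at −1.42 with CBE, and GIGYF1 lies near −1 on both axes (−1.07 and −1.02).

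None of the 3 genes passed between the labelled lines. PLCB2 and GIGYF1 were higher in the MOLM13 library of all 4 groups and TSPOAP1 in 3 of 4, with log2 differences (MOLM13 minus OCI-AML4) of 0.31 for PLCB2, 0.26 for GIGYF1 and 0.07 for TSPOAP1. The edgeR Benjamini-Hochberg adjusted p was 0.0547 for PLCB2, 0.140 for GIGYF1 and 0.717 for TSPOAP1, and 119 of all tested genes, or 0.495%, passed. PLCB2 passed between lines under DESeq2 (0.30, adjusted p 0.00878) and without either HOTSCRAMBL CBE library (0.39, larger edgeR adjusted p 0.0389), and GIGYF1 passed under DESeq2 (0.25, adjusted p 0.00626). Whether the average HOTSCRAMBL effect differed between lines was also tested. The estimates were −0.10 for TSPOAP1, −0.13 for PLCB2 and −0.19 for GIGYF1, and none passed (edgeR adjusted p 0.982, 0.988 and 0.982). That contrast called 0 genes, or 0%, with edgeR, although 985 had an unadjusted p under 0.05, and DESeq2 called 78.

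Genes that overlap or neighbour the 3 genes bear on which transcript the reads came from, since reads were counted without strand. TSPOAP1 shares 252 of its exonic bases (2.21%) with TSPOAP1-AS1, a transcript of the opposite strand. PLCB2 shares 357 (4.86%) with its antisense gene PLCB2-AS1, while ANKRD63 and ENSG00000273855 lie within it on its own strand, and GIGYF1 shares 0. Reads from a gene and its antisense partner cannot be told apart where they overlap. TSPOAP1-AS1 was at 61.0, 43.3, 69.2 and 63.3 CPM in the MOLM13 libraries of AAVS1 KO, HOTSCRAMBL KO, AAVS1 CBE, HOTSCRAMBL CBE, and 82.6, 41.7, 68.9 and 82.1 CPM in the OCI-AML4 libraries in the same order. It fell with KO by 0.76 on the log2 scale (SE 0.214, edgeR adjusted p 0.0237), a call lost without any 1 KO library or without the OCI-AML4 library of HOTSCRAMBL CBE, and was at 0.06 with CBE (SE 0.179, edgeR adjusted p 0.904). The lowest libraries of TSPOAP1-AS1 were those of HOTSCRAMBL KO, and the lowest of TSPOAP1 those of HOTSCRAMBL CBE. The part of antisense reads in the counts was not tested. PLCB2-AS1 was scarce, at a mean of 0.209 to 2.97 CPM per group, and passed with neither editor, nor did ANKRD63 or ENSG00000273855.

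Within 100 kb of TSPOAP1 lie 15 other genes, of which 11 were tested, with 2 lower with KO and 1 lower with CBE, against 4.25% and 4.27% lower over all tested genes. The one called with both is MIR142HG, 2.08 kb away on the same strand and the host transcript of the blood microRNA miR-142. Its span lies within that of TSPOAP1-AS1, which is on the opposite strand. Whether their exons share bases, where reads could not be told apart, was not examined. MIR142HG was at 165, 74.7, 169 and 97.4 CPM in the MOLM13 libraries of AAVS1 KO, HOTSCRAMBL KO, AAVS1 CBE, HOTSCRAMBL CBE, and 358, 149, 339 and 203 CPM in the OCI-AML4 libraries in the same order. Each HOTSCRAMBL library was below the AAVS1 library of its line, and each MOLM13 library was below its OCI-AML4 partner. MIR142HG fell by 1.21 with KO (SE 0.132, edgeR adjusted p 2.07e-07) and by 0.76 with CBE (SE 0.121, edgeR adjusted p 7.02e-05). Without the replicate block, which leaves the line difference in the spread, neither passed (edgeR adjusted p 0.479 and 0.634). The values of TSPOAP1 beside it were 0.21 with KO and −1.42 with CBE. MPO, the myeloperoxidase gene 20.3 kb from TSPOAP1, had log2 fold changes of −0.74 and −0.71 and passed with neither (edgeR adjusted p 0.0696 and 0.0581).

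**Figure D3:**
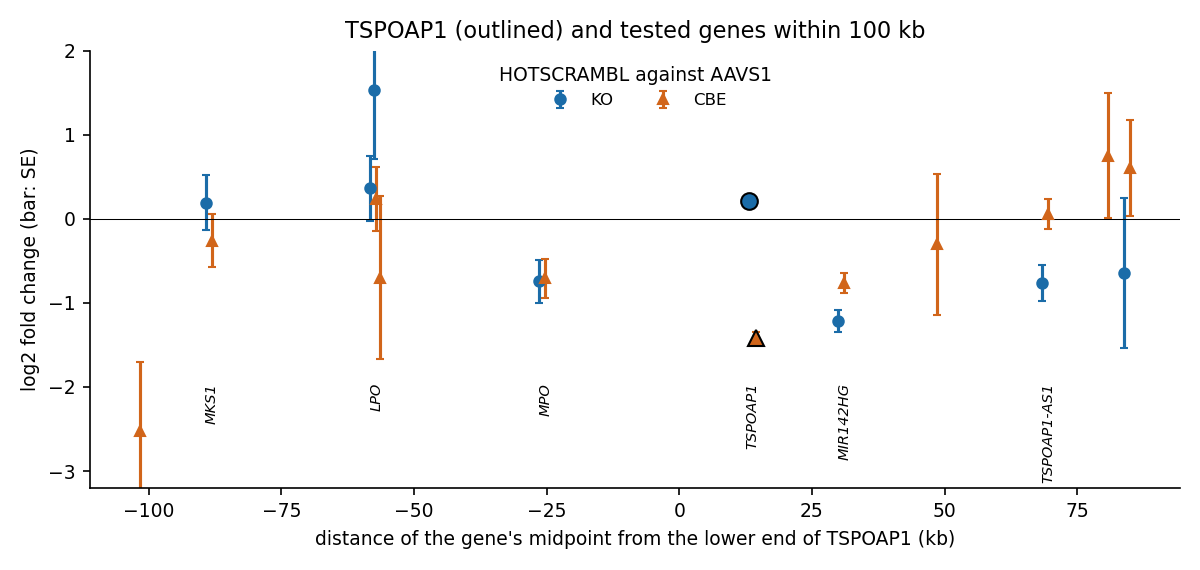
Log2 fold change of HOTSCRAMBL against AAVS1 (vertical axis, bars SE) with KO (blue circles) and CBE (orange triangles) for TSPOAP1, outlined, and the tested genes within 100 kb whose SE was under 1, against the distance of each gene's midpoint from the lower end of TSPOAP1 in kb, with some of the genes named. MIR142HG is below 0 with both editors (−1.21 and −0.76), while TSPOAP1-AS1 is lower with KO (−0.76) and near 0 with CBE (0.06).

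Sequences are shown at starts of the 2 transcripts beside or inside TSPOAP1 that were called with an editor. They are from RefSeq on GRCh38.p14, cover 300 bases around the start, most of them before it, and are written 5′ to 3′ on the strand of the transcript. Motifs were searched on both strands of all 35116 promoters of the same length. The core of ETS factors such as PU.1, GGAA, occurs in 95.5% of them, and its longer form GAGGAAGT, which contains the core, in 2.59%. The HOX and PBX type motif TGATTTAT occurs in 0.846%. The Sp1 type motif GGGCGG occurs in 45.0%. The element of core promoters TATAAA occurs in 11.5%. The E-box CACGTG occurs in 7.26%. Capitals mark GGGCGG and CACGTG in MIR142HG and GGAA in TSPOAP1-AS1, on either strand.
MIR142HG, chr17:58332471-58332770, minus strand: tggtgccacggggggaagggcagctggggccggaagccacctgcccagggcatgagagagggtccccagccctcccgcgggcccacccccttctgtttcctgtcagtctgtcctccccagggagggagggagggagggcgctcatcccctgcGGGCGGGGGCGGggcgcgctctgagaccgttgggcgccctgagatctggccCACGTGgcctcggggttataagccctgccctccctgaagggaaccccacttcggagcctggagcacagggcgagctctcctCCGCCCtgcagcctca
TSPOAP1-AS1, chr17:58325200-58325499, plus strand: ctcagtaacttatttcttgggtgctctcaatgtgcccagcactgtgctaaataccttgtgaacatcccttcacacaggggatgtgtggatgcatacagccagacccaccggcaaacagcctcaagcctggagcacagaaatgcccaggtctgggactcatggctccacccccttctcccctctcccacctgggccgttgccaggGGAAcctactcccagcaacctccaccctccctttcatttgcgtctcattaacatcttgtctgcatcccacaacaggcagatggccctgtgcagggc
The MIR142HG window holds 3 GGGCGG, 1 CACGTG and 4 GGAA. The TSPOAP1-AS1 window lies inside the span of TSPOAP1, has 0 bases in its exons, and holds 1 GGAA and none of the other motifs searched. RefSeq lists another start of TSPOAP1-AS1, outside TSPOAP1, with 2 GGAA and 1 TATAAA in its window (chromosome 17, 58336952 to 58337251). A match is a description of letters, not a binding site. The mature products of miR-142, with the seed (bases 2 to 8) in capitals, identify the RNA that MIR142HG hosts. Its own entry, MIR142, had 0 counts in all 8 libraries.
hsa-miR-142-3p: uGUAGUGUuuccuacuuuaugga
hsa-miR-142-5p: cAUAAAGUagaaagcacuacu

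Within 100 kb of PLCB2 lie 22 other genes, 15 of them tested, of which 1 was lower with KO and 1 with CBE, against the same 4.25% and 4.27% over all tested genes. CCDC9B, 23.5 kb away, fell with CBE by 1.57 (SE 0.401, edgeR adjusted p 0.0114), a call that every fit without 1 of the 4 CBE libraries lost. BUB1B, which encodes a mitotic checkpoint kinase 57.1 kb away, fell with KO by 0.69 (SE 0.187, edgeR adjusted p 0.0175), a call lost without either AAVS1 KO library or the OCI-AML4 library of HOTSCRAMBL KO. Within 100 kb of GIGYF1 lie 11 genes, and none of the 9 tested passed with either editor. GNB2, a G protein beta subunit gene 0.333 kb away on the opposite strand, had log2 fold changes of 0.39 with KO and 0.42 with CBE (edgeR adjusted p 0.425 and 0.322), against −1.07 and −1.02 for GIGYF1.

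The phospholipase C pathway around PLCB2 held calls in both directions. Of its 39 tested genes other than PLCB2, 6 were lower and 3 higher with KO (median log2 fold change 0.07), and 10 were lower and 3 higher with CBE (median −0.09), against medians of −0.01 and −0.02 over all tested genes. Over all tested genes 4.25% were lower and 4.51% higher with KO, and 4.27% and 4.56% with CBE. With CBE, the lower count was between 0 and 6 when 1 CBE library was left out, and 0 without the MOLM13 library of HOTSCRAMBL CBE. With KO, it was 3 without either AAVS1 KO library or without the OCI-AML4 library of HOTSCRAMBL KO. With CBE, the lower count was 1 when only the 4 CBE libraries were in the fit. Calls were more frequent among the 9645 tested genes with a mean of at least 10 CPM than over all tested genes. Of those, 951 were lower and 864 higher with KO, and 900 and 1011 with CBE.

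Among receptors and G proteins, LPAR2, a lysophosphatidic acid receptor, fell with KO by 0.75 and with CBE by 0.79 on the log2 scale (edgeR adjusted p 0.00349 and 0.00114). GNB1, a G protein beta subunit, rose with KO by 0.98 and with CBE by 0.75 (edgeR adjusted p 1.67e-06 and 6.67e-05). RGS2, an inhibitor of the G protein Gq, rose with KO by 3.45 (SE 0.467, edgeR adjusted p 7.68e-06). RAC2, a small GTPase of blood cells that activates PLCB2, rose with CBE by 0.82 (SE 0.150, edgeR adjusted p 0.000465). The G protein alpha subunit genes GNAQ and GNAI2 were called with CBE in opposite directions. GNAQ fell by 0.64 (SE 0.141, edgeR adjusted p 0.00292) and GNAI2 rose by 0.43 (SE 0.133, edgeR adjusted p 0.0424). NHERF1, listed as a regulator, rose with KO by 1.07 (SE 0.255, edgeR adjusted p 0.00637).

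Among the phospholipases, PLCB3, the closest relative of PLCB2 with a level to compare, was at 105, 106, 113 and 54.3 CPM in the MOLM13 libraries of AAVS1 KO, HOTSCRAMBL KO, AAVS1 CBE, HOTSCRAMBL CBE, and 101, 83.8, 104 and 69.3 CPM in the OCI-AML4 libraries in the same order. Like PLCB2 it had its lowest values in both HOTSCRAMBL CBE libraries. It fell with CBE by 0.83 (SE 0.171, edgeR adjusted p 0.00156) and had a log2 fold change of −0.13 with KO (SE 0.174, edgeR adjusted p 0.747). PLCG1, of the gamma class that receptor tyrosine kinases switch on, fell with KO by 1.20 (SE 0.297) and with CBE by 0.82 (SE 0.232), with edgeR adjusted p 0.00874 and 0.0246. PLCB1 and PLCB4 were near the floor, at mean levels of 0.626 and 1.47 CPM, and passed with neither editor.

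Downstream, the inositol trisphosphate receptors, which release calcium, and the kinase that removes their ligand were lower where they passed. ITPR3 fell with KO by 1.63 (SE 0.199) and with CBE by 0.72 (SE 0.162), with edgeR adjusted p 1.37e-06 and 0.00389. ITPKB, the kinase, fell by 1.21 (SE 0.209) and 0.65 (SE 0.184), with edgeR adjusted p 0.000206 and 0.0225. ITPR1 fell with CBE by 0.50 (SE 0.0974, edgeR adjusted p 0.000873). On the diacylglycerol arm, RASGRP2, a calcium and diacylglycerol regulated activator of RAP1, fell with KO by 1.45 (SE 0.118) and with CBE by 0.49 (SE 0.107), with edgeR adjusted p 1.03e-09 and 0.00302. DGKZ, a diacylglycerol kinase, fell by 0.51 (SE 0.113) and 0.60 (SE 0.111), with edgeR adjusted p 0.00369 and 0.000567. PRKCA, a protein kinase C gene, fell with CBE by 0.83 (SE 0.247, edgeR adjusted p 0.0337). With KO its log2 fold change had the opposite sign and did not pass (0.71, SE 0.244, edgeR adjusted p 0.0745). The calls of PRKCA, GNAQ, GNAI2 and NHERF1 were not followed in the fits without 1 library.

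Of the pathway calls named, those of GNB1 with both editors and of RGS2, ITPR3, ITPKB and RASGRP2 with KO were kept in every fit without 1 library. The CBE calls of LPAR2, RAC2, PLCB3, PLCG1, ITPR1, ITPR3, ITPKB, RASGRP2 and DGKZ were lost without the MOLM13 library of HOTSCRAMBL CBE (edgeR adjusted p 0.0690 to 0.290). Of these, LPAR2, PLCB3, PLCG1, ITPR3, ITPKB and RASGRP2 were also lost without the MOLM13 library of AAVS1 CBE, PLCG1, ITPR3, ITPKB and DGKZ without its OCI-AML4 library, and PLCG1 and ITPKB without the OCI-AML4 library of HOTSCRAMBL CBE. The KO calls of LPAR2, DGKZ and PLCG1 were lost without either AAVS1 KO library or the OCI-AML4 library of HOTSCRAMBL KO (edgeR adjusted p 0.0750 to 0.170), and that of PLCG1 also without the MOLM13 library of HOTSCRAMBL KO.

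**Figure D4:**
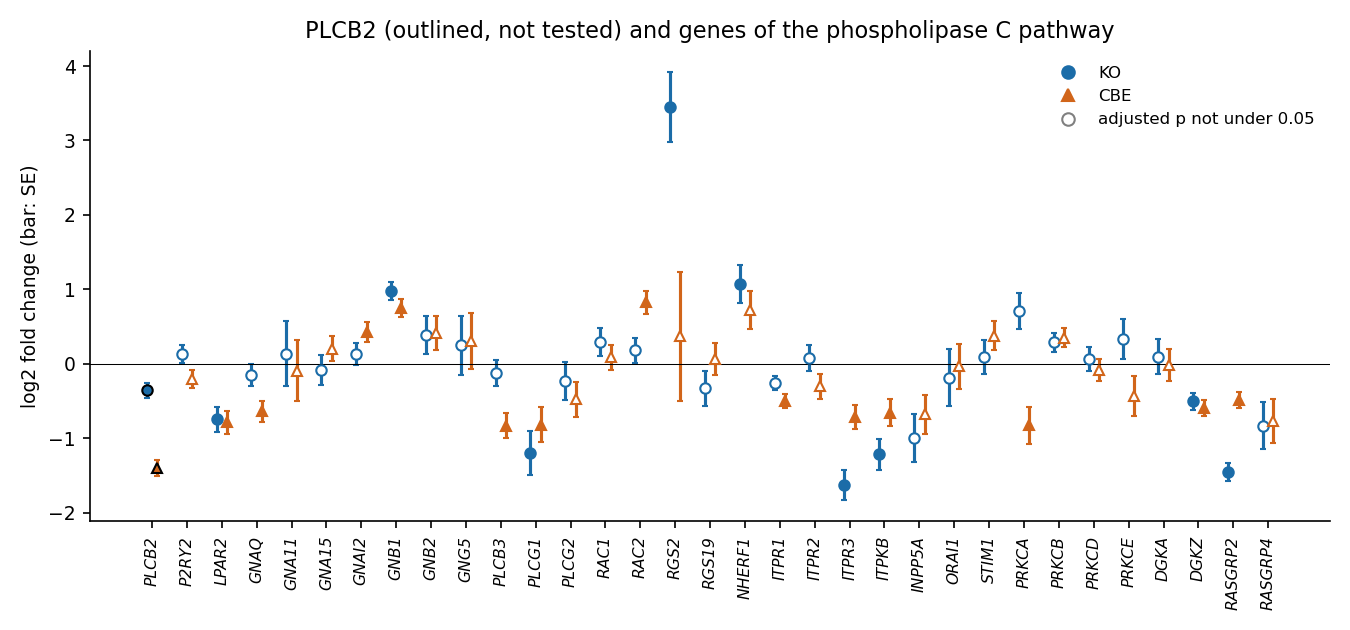
Log2 fold change of HOTSCRAMBL against AAVS1 (vertical axis, bars SE) with KO (blue circles) and CBE (orange triangles) for PLCB2, outlined in black, and the genes of the phospholipase C list with a mean of at least 10 CPM (horizontal axis), open where the edgeR adjusted p was not under 0.05. RGS2 with KO (3.45) and GNB1 with both editors (0.98 and 0.75) are above 0, and ITPR3 with KO (−1.63) is the lowest point.

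The partners of GIGYF1 in messenger RNA repression and decay were called in both directions. Of 32 tested genes, 3 were lower and 3 higher with KO (median log2 fold change −0.02), and 2 were lower and 6 higher with CBE (median 0.14). Over all tested genes 4.25% were lower and 4.51% higher with KO, with 4.27% and 4.56% for CBE. Calls were more frequent among the 9645 tested genes with a mean of at least 10 CPM. Of those, 951 were lower and 864 higher with KO, and 900 and 1011 with CBE. The 4 counts of the list fell to 0 or 1 with only the 4 libraries of the comparison in the fit. The paralog GIGYF2 was at 369, 245, 307 and 228 CPM in the MOLM13 libraries of AAVS1 KO, HOTSCRAMBL KO, AAVS1 CBE, HOTSCRAMBL CBE, and 310, 232, 315 and 240 CPM in the OCI-AML4 libraries in the same order. As with GIGYF1, all 4 HOTSCRAMBL libraries lay below all 4 AAVS1 libraries. GIGYF2 fell by 0.51 with KO (SE 0.117, edgeR adjusted p 0.00495) and by 0.41 with CBE (SE 0.113, edgeR adjusted p 0.0189). The CBE call was lost without any 1 CBE library (largest edgeR adjusted p 0.346), and the KO call without the MOLM13 library of AAVS1 KO or either HOTSCRAMBL KO library (largest edgeR adjusted p 0.273). It was also lost without the replicate block with CBE (edgeR adjusted p 0.0751).

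With KO, ZFP36L2, which marks messages for decay, rose by 1.11 (SE 0.112), and EDF1, which brings GIGYF proteins to collided ribosomes, rose by 0.90 (SE 0.232), with edgeR adjusted p 6.45e-08 and 0.0121. CNOT3, of the CCR4-NOT deadenylase, fell by 0.54, and EIF4ENIF1, the EIF4E transporter, fell by 1.12, with edgeR adjusted p 0.0166 and 0.0186. With CBE, DCP2 (the decapping enzyme), DDX6 (a helicase of repressed messages), CNOT6L and CNOT1 (of the CCR4-NOT complex) rose by 0.89, 0.75, 0.66 and 0.48, with edgeR adjusted p from 0.00207 to 0.00627. TNRC6B, a microRNA effector, and DCP1A, a decapping cofactor, rose by 0.34 and 0.78 (edgeR adjusted p 0.0380 and 0.0395), whereas EDC4, another decapping cofactor, fell by 0.56 (edgeR adjusted p 0.0359). The other 24 genes of the list did not pass with CBE. Among these 11 genes, ZFP36L2 alone kept its call in every fit that left out 1 library. The binding partners EIF4E2 and ZNF598 passed with neither editor.

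Around TSPOAP1, none of the 14 tested genes of the TSPO and RIM-BP list passed with either edgeR comparison (median log2 fold change −0.08 with KO and 0.29 with CBE). DESeq2 called 2 lower and 2 higher with KO, and 2 lower with CBE. TSPO itself, the outer mitochondrial membrane partner, had log2 fold changes of 0.21 and 0.45 (edgeR adjusted p 0.799 and 0.464). Of the RIM-BP paralogs, RIMBP2 had 0 counts in all 8 libraries, and RIMBP3, at a mean of 4.22 CPM, passed with neither editor.

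All 3 genes have GC-rich transcripts, at 62.1% for TSPOAP1, 58.6% for PLCB2 and 60.8% for GIGYF1 over the longest transcript. When genes with a mean of at least 10 CPM were put in 4 equal bins by GC content, each fell in the top bin, which runs from 56.3% to 75.5%. In that bin the median log2 fold change was −0.24 with CBE, and 21.7% of genes were called lower and 7.56% higher. In the bin with the lowest GC content the median was 0.18, and 2.32% were lower. With KO the top bin had a median of −0.22 and 18.2% lower, and the lowest bin had a median of 0.05 and 4.18% lower. Among the GC bins, lower calls were most frequent in the one that holds the 3 genes. By mean level in CPM the 3 genes also share the top of 4 equal bins, in which 23.1% of genes were called lower and 15.6% higher with KO, and 19.3% and 20.3% with CBE. The part of GC content or level in the values of the 3 genes was not tested.

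**Figure D5:**
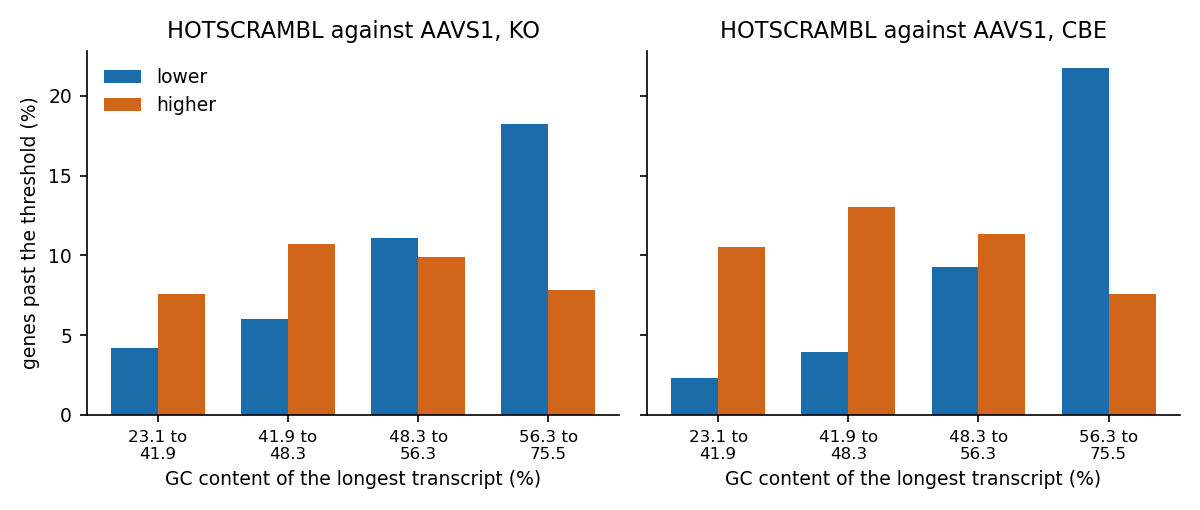
Percent of genes called lower (blue) and higher (orange) in HOTSCRAMBL against AAVS1 (vertical axis) in 4 equal bins of transcript GC content in percent (horizontal axis), for KO at left and CBE at right, among genes with a mean of at least 10 CPM. The share called lower goes from 4.18% to 18.2% with KO and from 2.32% to 21.7% with CBE between the lowest and the top bin, where all 3 genes lie.

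The make-up of the libraries also differed by target. Mitochondrial transcripts held 6.77% to 7.23% of counts in the 4 AAVS1 libraries and 10.2% to 11.9% in the 4 HOTSCRAMBL libraries. Ribosomal protein genes held 1.32% to 1.59% and 3.20% to 4.46%. GIGYF1 was low in the same 4 libraries, whereas the low TSPOAP1 libraries were those of HOTSCRAMBL CBE, with mitochondrial shares of 10.2% and 11.6% and ribosomal protein shares of 3.20% and 3.38%. In HOTSCRAMBL KO these shares were 10.7% and 11.9%, and 3.98% and 4.46%. The part of library make-up in these results was not tested. In such pull-downs from bulk samples, fewer cells of a type, less RNA per cell and less RNA captured cannot be told apart.

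Across the 8 libraries PLCB2 lay between the other two genes in its pattern. The log2 level of TSPOAP1 correlated with that of PLCB2 at Pearson r = 0.909, PLCB2 with GIGYF1 at 0.749, and TSPOAP1 with GIGYF1 at 0.437, a description over 8 libraries that share groups and depth. Among 9644 other genes, the 5 most like TSPOAP1 were FGR (r = 0.996), RALGDS, SEMA6B, CCNE1 and TBC1D2 (lowest r = 0.986). FGR, a SRC family kinase gene of myeloid cells, was at 60.4, 67.2, 51.0 and 11.6 CPM in the MOLM13 libraries of AAVS1 KO, HOTSCRAMBL KO, AAVS1 CBE, HOTSCRAMBL CBE, and 50.0, 70.4, 45.7 and 10.0 CPM in the OCI-AML4 libraries in the same order. The 5 most like PLCB2 were PLEC (r = 0.996), RASA3, ARGLU1, MPHOSPH8 and ZDHHC8 (lowest r = 0.985). PLEC, the gene of the cytoskeletal linker plectin, was at 1588 to 2364 CPM in 6 libraries and at 935 and 919 in HOTSCRAMBL CBE. The 5 most like GIGYF1 were PRRC2B (r = 0.995), CCDC57, DNAH1, AHNAK and SFSWAP (lowest r = 0.988). AHNAK, a giant scaffold gene, was at 1581 to 2011 CPM in the AAVS1 libraries and at 902 to 1077 in the HOTSCRAMBL libraries. Leaving out 1 library kept 1 to 5 of the 5 genes for TSPOAP1, 3 to 5 for PLCB2 and 2 to 4 for GIGYF1.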

How the data were processed

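Whole-number counts per gene from 8 ChIRP libraries were deposited by the authors, who made them with featureCounts 2.0.6 per the file headers, on Ensembl 112 gene models of GRCh38. Per the file header both reads of a pair were counted, without strand, and the aligner is not given in the sources used here. The 2 records that were split over lines were rejoined. Genes were tested with edgeR 4.0.16 (R 4.3.3) by the quasi-likelihood test with robust estimation, after TMM scaling and a filterByExpr minimum count of 10, in a model of the 4 groups with the labelled line as a block, leaving 3 residual degrees of freedom. P-values were adjusted by Benjamini-Hochberg over all 24057 genes, with a threshold of 0.05. The pairing comes from the labelled line, which the replicate number follows. Deviations of same-numbered libraries correlated at 0.00851 to 0.0245 over all tested genes and at 0.0411 to 0.117 above the median level. CPM values are TMM scaled, and log2 CPM used a prior count of 2. The procedure was also run on counts simulated without a line difference and with effects in HOTSCRAMBL KO only. That setting is simpler than these data, so it does not show how the procedure performs here. Alternatives were no block, DESeq2 1.42.0 and its size factors, library totals, no filter, limma 3.58.1 with voom, the 4 libraries of a comparison, counts divided in 2, leaving out each library and, chosen after seeing the data, the older quasi-likelihood method of edgeR. A test of the KO comparison was planned for TSPOAP1 and PLCB2, but since the average over editors may have chosen them, their KO values are given without it. The members and lists were chosen with earlier results of these data known, and no set test was run. Named were the 3 genes, overlapping genes, close paralogs, up to 5 passing list genes with the smallest p per comparison, and the 5 genes most like each by Pearson r at a mean of at least 10 CPM. Neighbours that do not overlap fall outside that rule, as do GNAQ, GNAI2, NHERF1, PRKCA, PLCG1, EIF4E2, ZNF598, TSPO, EDC4, TNRC6B and DCP1A. All of these were chosen with their values known. GC content came from GENCODE 29 transcripts. Promoter and protein sequences of the 3 genes are not used here.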

Additional observations from a re-analysis of the deposited data

Results flagged for a closer look

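Among TSPOAP1, PLCB2 and GIGYF1, only TSPOAP1 had opposite directions with the editors. Its rise with KO was small, and the size of that rise depended on the scaling. The fitted KO log2 fold change was 0.21 with TMM scaling and 0.06 with library totals. The effect with KO minus the effect with CBE was 1.63 on the log2 scale. Both KO pairs were above 0 (0.18 and 0.24) and both CBE pairs below it (−1.49 and −1.34). This difference was not tested, since it contains libraries that took part in choosing the gene. Over all tested genes, a lower call with CBE but not with KO was common. Of the 1028 genes called lower with CBE, 643 (62.5%) did not pass with KO, 340 (33.1%) were lower and 45 (4.38%) were higher.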

How the results depend on the processing

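The log2 fold changes of the 3 genes with KO and with CBE kept their direction under every setting run. Library totals shifted the median of all genes by −0.16 with KO and −0.13 with CBE, and gave −1.55 for TSPOAP1 and −1.15 for GIGYF1 with CBE and −1.23 for GIGYF1 with KO. The KO value of TSPOAP1 was 0.24 with DESeq2 size factors and with DESeq2, and 0.21 with limma-voom and the older edgeR method. It was 0.06 with library totals and 0.18 to 0.26 without 1 library. The KO value of PLCB2 was −0.36 without the replicate block, −0.34 with DESeq2 size factors, −0.35 with only 4 libraries and −0.45 to −0.27 without 1 library. Leaving out the replicate block also ended the calls of CNOT1, DCP1A, EDC4 and TNRC6B with CBE and of CNOT3 with KO. Between lines, TSPOAP1 passed with limma-voom (0.10), PLCB2 with no filter (0.31), DESeq2 (0.30), limma-voom (0.34) and the older method (0.30), and was 0.27 to 0.39 without 1 library, and GIGYF1 passed with DESeq2 (0.25) and limma-voom (0.29). The line difference of the PLCB2 effect was −0.34 to 0.068 without 1 library. TSPOAP1-AS1 with CBE, which did not pass, was −0.083 with library totals and −0.092 to 0.22 without 1 library. KO values without 1 library were −0.065 to 0.74 for GNB2, −4.55 to 0.024 for PLCB2-AS1 and −0.32 to 0.059 for PLCB3. Genes called lower ranged from 231 (4 libraries only) to 2147 (DESeq2) with KO and from 188 to 1807 with CBE, and higher from 430 to 2003 with KO and down to 340 with CBE. Library totals gave 1695 lower with KO and 1616 with CBE. Calls between lines were 26 to 58 without 1 library, 193 with the older method, 250 with limma-voom and 715 with DESeq2, and the line difference gave 2 with the older method. Why calls changed was not tested, and some fits also held fewer libraries. With 2 libraries per group, small differences are not detectable, and counting error is small at these depths.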
